A study of Mus musculus with 8 samples.

Results

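The Cd300 genes are a family of receptors of myeloid cells that lie in a cluster on mouse chromosome 11, and their mRNA was compared in LT-HSCs sorted from mice with a floxed asrij allele and from asrij KO mice. The genes were chosen by symbol, and the family was selected on the KO and floxed values of these same 8 libraries. The differences between the genotypes are therefore given for these genes as a description, without a test. The set holds 9 of the 54749 genes in the files: the inhibitory receptors Cd300a and Cd300lf, the activating receptors Cd300lb, Cd300ld, Cd300c2 and Cd300e, and Cd300ld3, Cd300ld4 and Cd300ld5, close copies named after Cd300ld. All 9 passed the filter on low counts that left 21902 genes, a filter that a gene can pass through 1 genotype alone.

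Cd300ld3, Cd300ld4 and Cd300ld5 were lower in the KO libraries, with log2 fold changes from −2.88 to −2.45 and no KO library as high as any floxed library. Cd300e, Cd300ld, Cd300lf and Cd300lb had lower means in KO, but in each of them the lowest floxed library lay below at least 1 KO library. Cd300a and Cd300c2 were not lower. Floxed replicate 3 was the lowest floxed library for all 9 genes, and much of what follows differs with and without it.

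LT-HSCs are long-term hematopoietic stem cells, the bone marrow cells that can rebuild the blood for life, and asrij is another name of Ociad1. RNA came from 4 mice homozygous for a floxed asrij allele (replicates 1, 3, 4 and 5) and 4 mice with a whole-body deletion of asrij (replicates 2, 3, 4 and 5), with 1 library for each mouse. All were bone marrow cells of mice labelled as 6 months old, and the titles of the floxed libraries call them Wt although these mice carry the floxed allele. The study used mice of both sexes, and its methods give LSK CD150+ CD48+ as the sort for sequencing but CD48- for its other work on LT-HSCs. Because the deletion is in the whole body, the cells around the LT-HSCs lack asrij as well.

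CD300 proteins have an immunoglobulin-like domain outside the cell, and several bind lipids such as phosphatidylserine on dying cells. Inhibitory members carry tyrosine motifs in a long tail that recruit phosphatases such as Ptpn6. Activating members have short tails and pair in the membrane with adapters such as Tyrobp or Fcer1g, which recruit the kinase Syk. In bone marrow the family is known from granulocytes, monocytes, mast cells and dendritic cells.

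Ociad1 was at 41.6, 66.9, 36.7 and 31.3 CPM in floxed replicates 1, 3, 4 and 5 and at 15.2, 19.7, 12.5 and 11.7 CPM in KO replicates 2, 3, 4 and 5 (log2 fold change −1.58, SE 0.27, adjusted p = 0.0249 by edgeR). CPM here is the count of a gene scaled to the size of its library by TMM. Library totals ran from 23412829 to 44874882 gene counts. The sorted cells were checked against markers. The 10 HSC markers summed to 94.1 to 117.4 CPM in floxed and 98.2 to 120.2 CPM in KO libraries, and 0 of them were called by edgeR or DESeq2, with 1 at an unadjusted p under 0.05. Kit was the highest of the 10 at 46.8 to 60.2 CPM, and Mllt3, Ly6a, Meis1 and Hlf ran from 4.29 to 30 CPM. Slamf1, Mecom and Ctnnal1 ran from 0.498 to 4.41 CPM. Procr at 0.142 to 0.962 CPM and Fgd5 at 0.158 to 1.09 CPM had the lowest means, near 0, and were named after their values were seen. The 16 neutrophil markers summed to 19136 to 59207 CPM in floxed and 28649 to 35428 CPM in KO libraries. The RNA was thus rich in transcripts of mature granulocytes for a stem cell sort, and in such bulk samples fewer cells of a type and less RNA per cell cannot be told apart.

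The members lay between positions 114890041 and 115133992 of chromosome 11 (GRCm38), a stretch of 243952 bases, with Cd300a on the plus strand and the other 8 on the minus strand. RefSeq promoters (GRCm38.p6), here the 250 bases before the RefSeq start of each gene, were matched for all 9. In 6 members that start lies inside the span used for the counts, so the window overlaps the span by 15 bases in Cd300lb, 36 in Cd300ld, 79 in Cd300ld3, Cd300ld4 and Cd300ld5, and 138 in Cd300e. The promoters of Cd300ld4 and Cd300ld5 were the same at all 250 positions, and that of Cd300ld3 differed from them at 13. They are shown because these 3 genes had the largest differences between the genotypes, beside the promoter of Cd300lf, the member with the highest level per kb of spliced transcript. Each is written from 5′ to 3′ on the strand of its gene. Capitals mark matches on either strand to GAGGAA, the core of sites of the myeloid factor PU.1, or to TTNNGNAA, a form of the C/EBP site.
Cd300ld4 at chr11:115026934-115027183, minus strand, with the same letters as Cd300ld5 at chr11:115037691-115037940: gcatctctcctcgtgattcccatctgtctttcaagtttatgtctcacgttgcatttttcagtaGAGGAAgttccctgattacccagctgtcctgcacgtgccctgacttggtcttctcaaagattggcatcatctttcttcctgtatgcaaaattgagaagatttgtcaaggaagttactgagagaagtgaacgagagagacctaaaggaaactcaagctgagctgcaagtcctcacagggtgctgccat
Cd300ld3 at chr11:115048331-115048580, minus strand: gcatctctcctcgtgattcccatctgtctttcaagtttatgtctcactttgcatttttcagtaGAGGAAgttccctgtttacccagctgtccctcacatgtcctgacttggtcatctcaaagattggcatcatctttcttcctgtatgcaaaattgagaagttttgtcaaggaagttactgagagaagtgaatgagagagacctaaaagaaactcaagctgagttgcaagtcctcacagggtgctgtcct
Cd300lf at chr11:115133993-115134242, minus strand: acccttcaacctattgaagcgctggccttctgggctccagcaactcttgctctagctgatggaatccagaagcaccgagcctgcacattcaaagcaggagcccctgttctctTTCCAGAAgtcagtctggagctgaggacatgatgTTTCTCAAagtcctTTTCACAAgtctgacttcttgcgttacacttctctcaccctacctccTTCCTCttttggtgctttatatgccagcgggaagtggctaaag

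GAGGAA was found in 7 of the 9 promoters, against 23.3% of the 32851 promoters in the table, and Cd300lb and Cd300e were the members without it. In Cd300ld3, Cd300ld4 and Cd300ld5 it began at the same place, 187 bases before the RefSeq start. These 3 promoters are near-identical, so their matches are not independent and the 7 of 9 cannot be weighed against the share of all promoters. TTNNGNAA was found in Cd300a, Cd300ld and Cd300lf, or 3 of 9, against 36.8% of all promoters. TGTGGT, the core of RUNX sites, was found in 1 member, Cd300c2 (directly beside the GAGGAA match, without overlap), against 14.0% of all promoters. These are matches of letters in a short window.

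The likeness of the Cd300ld copies also bears on their counts. Of all 50-base stretches of the spliced transcript, 100.0% in Cd300ld5, 93.8% in Cd300ld4 and 82.1% in Cd300ld3 also occurred in a transcript of another gene, chiefly another of these 3. A read of 1 of them may have been placed on another, so their values as single genes are uncertain. The share was 8.0% or less in each of the other members.

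Transcripts of Cd300lf with the same span each had a total count of 49372. A transcript of Rab37 whose span holds that of Cd300lf had 49521. Counts were therefore taken to cover the whole span of a gene with its introns and both strands, although the counting tool is not given. Overlapping genes then share reads. Cd300lf lies inside the span of Rab37, which encodes a small GTPase and runs on the other strand, and the Cd300lf count was 92% of the Rab37 count. With the Cd300lf count taken off, Rab37 was at 11.6 to 21.9 CPM in floxed and 11.4 to 16.8 CPM in KO libraries, a small part of the reads that the 2 genes share. Cd300lb overlaps the pseudogene Gm11699, whose count was 0.656% of the Cd300lb count.

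**Figure D1:**
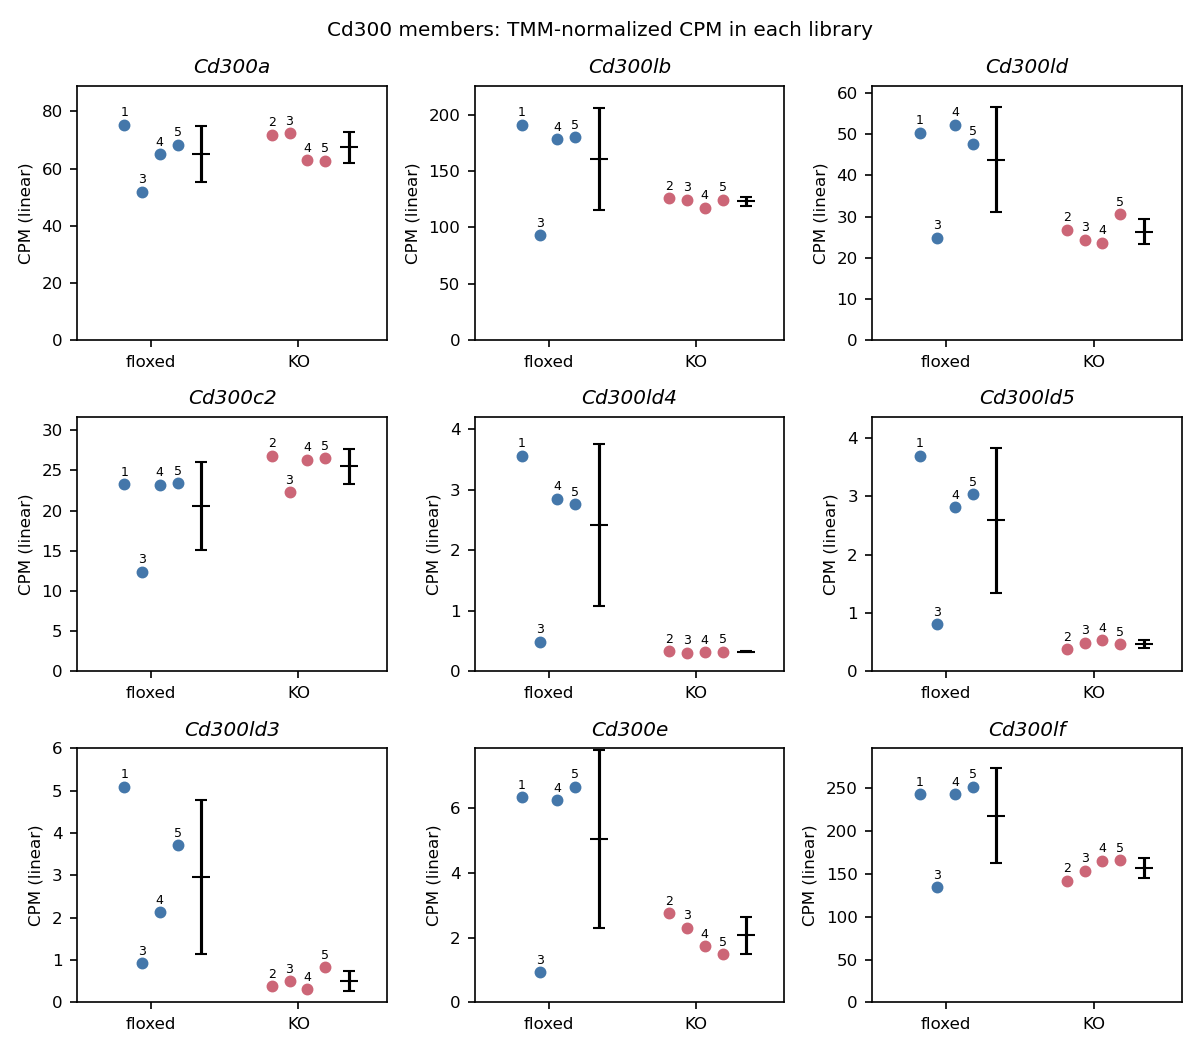
CPM of each member in the 4 floxed (blue) and 4 KO (red) libraries on linear axes that start at 0, with the replicate number above each point and the mean ± SD of the group in black. Floxed replicate 3 is the lowest floxed point in all 9 panels, and the groups do not overlap for Cd300ld4, Cd300ld5 and Cd300ld3.

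Cd300lf, an inhibitory receptor that is also the entry receptor of mouse norovirus, was at 243.0, 135.0, 243.4 and 251.9 CPM in floxed replicates 1, 3, 4 and 5. In KO replicates 2, 3, 4 and 5 it was at 142.2, 153.9, 165.5 and 166.3 CPM. Floxed replicate 3 lay below every KO library and the other 3 floxed libraries lay well above them, so the groups overlapped. The means were 218.3 ± 55.7 CPM in floxed and 157.0 ± 11.4 CPM in KO libraries (n = 4, SD), a log2 fold change of −0.48 (SE 0.21), or −0.64 (SE 0.11) without floxed replicate 3.

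Cd300a, the inhibitory receptor for phosphatidylserine and phosphatidylethanolamine, was at 75.3, 51.9, 65 and 68.4 CPM in the floxed libraries, in the same order. In the KO libraries it was at 71.9, 72.4, 62.9 and 62.8 CPM. The KO values lay inside the floxed range, with means of 65.1 ± 9.79 CPM in floxed and 67.5 ± 5.37 CPM in KO libraries. Its log2 fold change of 0.05 (SE 0.15) became −0.03 (SE 0.11) without floxed replicate 3. Of the members, it thus had the smallest difference between the genotypes.

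Cd300lb, an activating receptor that signals through Tyrobp, was at 190.9, 93.3, 177.9 and 180.2 CPM in floxed libraries. In KO libraries it was at 125.7, 124.5, 117.6 and 124.5 CPM, a narrower spread than in floxed libraries. Again floxed replicate 3 was below all KO libraries and the other 3 above them. The log2 fold change was −0.38 (SE 0.22), and −0.56 (SE 0.10) without floxed replicate 3.

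Cd300ld, an activating receptor that pairs with Fcer1g, was at 50.3, 24.9, 52.2 and 47.6 CPM in floxed libraries. The KO libraries had 26.8, 24.4, 23.7 and 30.5 CPM. Floxed replicate 3 lay within the KO range, and the lowest of the other floxed libraries was above the highest KO library. The means of 43.8 ± 12.7 CPM and 26.4 ± 3.08 CPM gave a log2 fold change of −0.73 (SE 0.23), the median of the 9 members.

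Cd300c2, an activating receptor that signals through Tyrobp, went the other way on average, at 23.3, 12.4, 23.2 and 23.4 CPM in floxed libraries. The KO libraries had 26.8, 22.3, 26.3 and 26.5 CPM. Its groups overlapped through KO replicate 3, which lay below 3 of the floxed libraries. The log2 fold change of 0.31 (SE 0.22) dropped to 0.14 (SE 0.12) without floxed replicate 3.

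Cd300e, an activating receptor known from monocytes, was at 6.35, 0.946, 6.25 and 6.67 CPM in floxed libraries. KO values were 2.77, 2.31, 1.74 and 1.49 CPM. Floxed replicate 3 was the lowest of all 8 libraries and the other 3 floxed libraries were the highest. The log2 fold change was −1.27 (SE 0.52), with the widest SE after Cd300ld4 and Cd300ld3, and −1.61 (SE 0.24) without floxed replicate 3.

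The 3 Cd300ld copies were rare transcripts. Cd300ld4 was at 3.56, 0.492, 2.85 and 2.76 CPM in floxed libraries, from 135, 26, 67 and 72 reads. In KO libraries it was at 0.333, 0.312, 0.319 and 0.326 CPM, from 13, 12, 9 and 9 reads. Floxed replicate 3 was nearer to the KO libraries than to the other floxed libraries, and the gap between the groups was small on the side of that library. The log2 fold change was −2.88 (SE 0.56), and −3.22 (SE 0.26) without floxed replicate 3.

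Cd300ld5 was at 3.69, 0.813, 2.81 and 3.03 CPM in floxed libraries. KO libraries had 0.384, 0.494, 0.532 and 0.471 CPM, from 13 to 19 reads. It followed the pattern of Cd300ld4, whose sequence it shares, with a log2 fold change of −2.45 (SE 0.47).

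Cd300ld3 was at 5.09, 0.927, 2.13 and 3.72 CPM in floxed libraries, the widest spread among the 3 libraries other than replicate 3. In KO libraries it was at 0.384, 0.494, 0.319 and 0.833 CPM, from 9 to 23 reads. KO replicate 5 came close to floxed replicate 3, and the log2 fold change was −2.54 (SE 0.55). Counted as 1 gene, the 3 copies had a log2 fold change of −2.61 (SE 0.46), so their joint difference does not depend on how reads were split among them.

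Counted by the study's thresholds (an adjusted p under 0.05 and a log2 fold change beyond 1.5 in size), 3 of the 9 members were lower in KO, namely the 3 Cd300ld copies, and 0 were higher. Over all 21902 genes tested, 0.740% were lower by these thresholds and 0.452% higher. The groups did not overlap, with KO lower, for the same 3 members, against 7.66% of all genes tested. The contrast served to select the family, so nothing is read from these shares. The median log2 fold change was −0.73 over the members and −0.01 over all genes tested. Without floxed replicate 3, 7 of the 9 members had KO values below all floxed values and 4 passed the thresholds, Cd300e being the fourth. Over all genes tested in that setting, 15.2% had KO values below all floxed values and 1.41% were lower by the thresholds. With any other library left out, 0 members passed them, although the fitted values kept their signs. With counts summed over the transcripts of a gene 2 members passed them, without Cd300ld3.

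Replicate numbers 3, 4 and 5 occur in both genotypes. With a block that only set numbers 4 and 5 apart from 1 to 3, 3 members passed the thresholds. The fit with the number as a block (the replicate block) used only libraries numbered 3, 4 and 5, so floxed replicate 1 and KO replicate 2 were left out. In it 0 members passed the thresholds, and the log2 fold changes were −2.30 (SE 0.63) for Cd300ld4, −1.91 (SE 0.51) for Cd300ld5 and −1.88 (SE 0.48) for Cd300ld3. Leaving out floxed replicate 1 alone, without a block, also gave 0 members, with −2.62, −2.21 and −2.13 in the same order. Effects of the block and of the missing libraries on the calls thus cannot be told apart. The numbers differed among themselves. For number 3, the KO level was 0.635 times the floxed level in Cd300ld4, 0.608 times in Cd300ld5 and 0.533 times in Cd300ld3, but 2.45 times in Cd300e and 1.14 times in Cd300lf. For number 4 it was 0.112 times in Cd300ld4 and 0.278 times in Cd300e, and for number 5 it was 0.118 times and 0.223 times. Cd300e was lower in KO within 2 of the 3 numbers. The Cd300ld copies were lower within each, which any matching of libraries would give, since their groups do not overlap. Libraries of the same number come from different mice, so nothing further is read from these ratios.

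**Figure D2:**
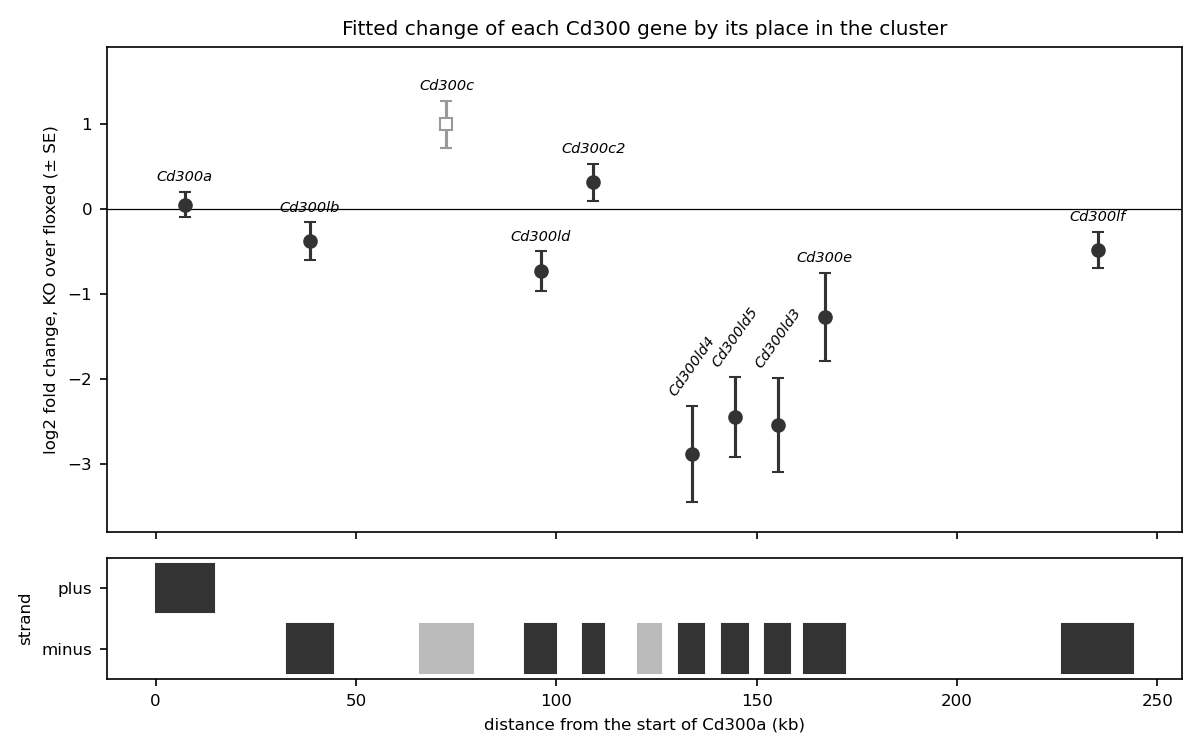
Log2 fold change of KO over floxed libraries (± SE) at the middle of each Cd300 gene, by distance in kb from the start of Cd300a, with the span and strand of each gene below (members dark, Cd300c and the untested Cd300ld2 grey). The 3 Cd300ld copies and Cd300e, the 4 lowest values from −2.88 to −1.27, are next to each other, while Cd300c at 0.99 is the highest.

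The 4 members with the lowest fitted values, Cd300ld4, Cd300ld5, Cd300ld3 and Cd300e, are neighbours in the cluster. The annotation has 3 more genes with a Cd300 symbol. Cd300ld2, which lies between Cd300c2 and Cd300ld4 and shares 30.1% of its 50-base stretches with other transcripts, did not pass the filter, with 62, 8, 15 and 19 reads in floxed and 0, 1, 1 and 4 reads in KO libraries. Without floxed replicate 3 Cd300ld2 passed the filter, with a log2 fold change of −4.30 (SE 0.83) from these few reads. Cd300c, an activating member in the cluster, was at 3.27, 6.64, 3.4 and 2.87 CPM in floxed and 8.38, 7.8, 7.73 and 8.41 CPM in KO libraries. Every KO library was above every floxed one, which held for 0 members and for 7.10% of all genes tested, but the difference did not pass the test (log2 fold change 0.99, SE 0.28, adjusted p = 0.079 by edgeR, 0.00113 to 0.198 over the alternatives). Cd300lg, which is on the same chromosome outside the cluster, had a log2 fold change of −0.21 (SE 0.34, adjusted p = 0.769 by edgeR).

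Of 18 other annotated genes within 200 kb of the cluster, 10 were tested and 0 were called by edgeR or by DESeq2, with 1 at an unadjusted p under 0.05. Their log2 fold changes ran from −0.89 to 0.31. Rab37 had −0.46, close to the −0.48 of Cd300lf whose reads it shares, and Gm11699 had −0.64.

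Levels of different genes were compared as CPM per kb of spliced transcript. In floxed libraries Cd300lf was highest with 117.1 CPM per kb and Cd300lb next with 55.8, and the ranges of neither overlapped with the gene below it. Cd300c2 with 17.3, Cd300ld with 16.5 and Cd300a with 14.1 CPM per kb followed, each overlapping the next. Cd300ld3 with 3.48, Cd300ld5 with 3.03, Cd300ld4 with 2.83 and Cd300e with 2.42 CPM per kb formed the lowest step, and each overlapped the next. In KO libraries the first 3 kept their order with 84.2, 42.7 and 21.5 CPM per kb, Cd300a with 14.6 lay above Cd300ld with 9.97, and Cd300e with 0.994 lay above the 3 copies at 0.379 to 0.596. There Cd300e overlapped Cd300ld3 and Cd300ld3 overlapped Cd300ld5, and no other neighbours in the order did. The counts appear to include introns, so the order per kb of genomic span is also relevant. By span Cd300lb was above Cd300lf in both genotypes, with 13.8 against 12.3 CPM per kb in floxed libraries. Cd300e was above the 3 copies in both genotypes by span, with 0.493 against 0.384 to 0.472 CPM per kb in floxed libraries. Its place below the copies in floxed libraries thus held only per kb of spliced transcript. Cd300c2 had rank 3 in floxed libraries per kb of spliced transcript but rank 5 by span.

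Summed over the members, the level was 601.4, 320.7, 575.8 and 587.6 CPM in floxed and 397.2, 401.2, 399.0 and 413.7 CPM in KO libraries. Cd300lb and Cd300lf made up 72.5% ± 1.06 of this sum in floxed and 69.5% ± 1.56 in the KO group (n = 4, SD). The 3 Cd300ld copies made up 2.052%, 0.696%, 1.351% and 1.617% in floxed and 0.277%, 0.324%, 0.293% and 0.394% in KO libraries. Each floxed library, replicate 3 included, thus had a larger share of the copies than any KO library.

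Markers of other cells moved with the family, and their part in its values was not tested. The 14 monocyte and macrophage markers summed to 9684, 3476, 11863 and 11387 CPM in floxed and 5155 to 5508 CPM in KO libraries, with 0 called by edgeR, 6 at an unadjusted p under 0.05 and 1 called by DESeq2. The 16 neutrophil markers had a floxed range of 52174 to 59207 CPM without replicate 3, which was at 19136 CPM, and 0 were called by edgeR or DESeq2, with 4 at an unadjusted p under 0.05. Floxed replicate 3 was thus the lowest of all 8 libraries in both sums, as it was in the sum of the members. The lowest value of a single gene was 79.3 CPM among the neutrophil and 1.82 CPM among the monocyte and macrophage markers, so none was at 0.

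Mast cell, basophil and eosinophil markers summed to 739.4 to 1341 CPM in floxed, with replicate 3 lowest, and 1841 to 2199 CPM in KO libraries. The higher KO sum came mainly from Prg2, a protein of eosinophil granules, with means of 626.3 ± 101.5 CPM in floxed and 1476 ± 215.8 CPM in KO libraries (n = 4, SD). Of the 8 tested genes of that list 5 were below 0, with a median of −0.62, and these were the mast cell and basophil genes Cpa3, Ms4a2, Mcpt8, Fcer1a and Prss34, all lowest among the floxed libraries in replicate 3. Fcer1a, a chain of the IgE receptor, was called lower (log2 fold change −2.22, adjusted p = 0.0346 by edgeR, 0.185 with the replicate block, 6.18e-05 to 0.185 over the alternatives), and Cma1 and Tpsb2 were at 0 in some libraries. Dendritic cell markers summed to 345.5 to 384.0 CPM in floxed and 371.9 to 428.8 CPM in KO libraries, B and plasma cell markers to 384.8 to 519.2 and 458.1 to 509.7 CPM, and T and NK cell markers to 45.5 to 83.9 and 41.3 to 45.4 CPM. By edgeR, Vpreb1 of the pre-B cell receptor was called higher, and the plasma cell gene Jchain and the NK receptor Ncr1 lower, while 0 dendritic cell markers were called by edgeR or DESeq2, with 1 at an unadjusted p under 0.05. Erythroid markers, at 17619 to 45674 CPM in floxed and 78505 to 188589 CPM in KO libraries, and megakaryocyte and platelet markers, at 30 to 65.7 and 153.7 to 171.6 CPM, were higher in every KO library than in any floxed one, with 2 of 7 and 4 of 5 tested genes called higher by edgeR. With the replicate block the adjusted p of edgeR was 0.118 for Vpreb1, 0.138 for Jchain and 0.122 for Ncr1, all above 0.05, and 0 erythroid and 1 megakaryocyte and platelet marker (Pf4) were called.

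**Figure D3:**
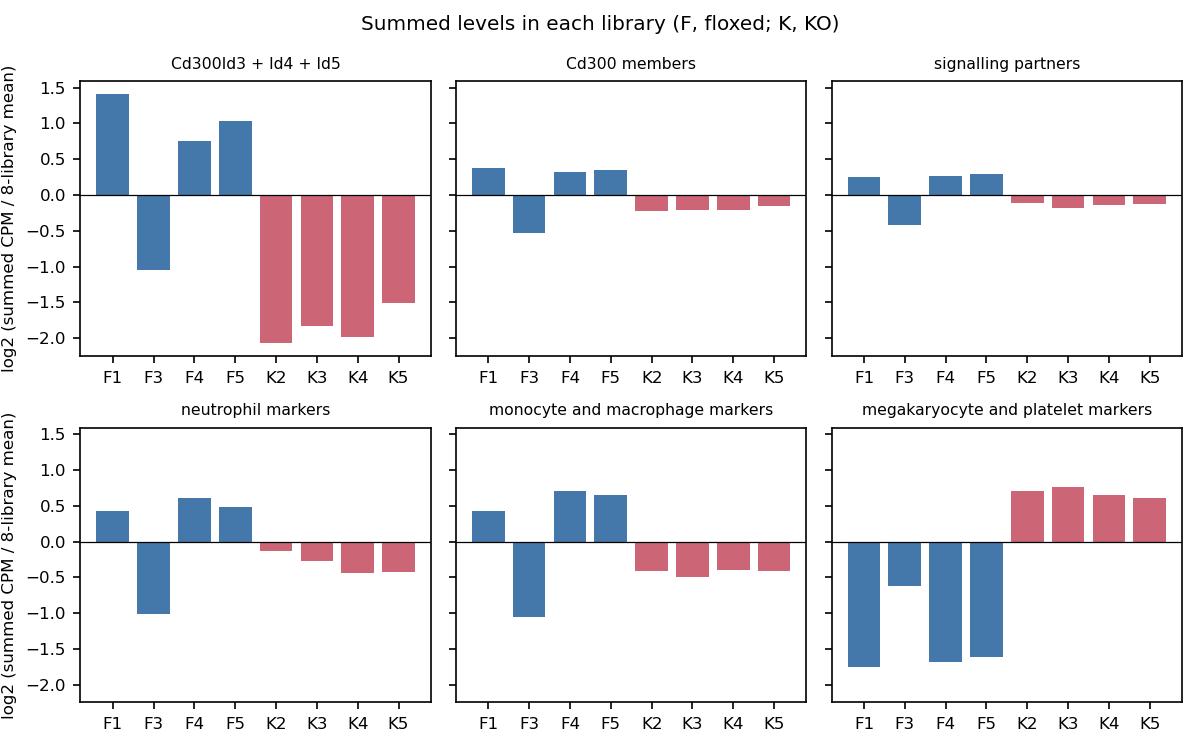
Log2 of the summed CPM in each library over the mean of the 8 libraries, for the 3 Cd300ld copies, all 9 members, the signalling partners and 3 marker lists (blue F, floxed; red K, KO; the digit is the replicate number). Floxed replicate 3 is below the mean in the members, partners, neutrophil and monocyte panels, where the other floxed libraries are above it.

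Signalling partners of the receptors, a list of 20 adapters, kinases, phosphatases and other enzymes, were all tested. By edgeR 0 were called in either direction, with 2 at an unadjusted p under 0.05 (Lyn and, named after its value was seen, Plcg2), and DESeq2 also called 0. The median log2 fold change was −0.28, and 16 of the 20 were below 0. Tyrobp, the adapter of Cd300lb and Cd300c2, was at 282.0, 108.0, 270.8 and 249.3 CPM in floxed and 226.6, 195.9, 159.2 and 168.4 CPM in KO libraries (adjusted p = 0.626 by edgeR). Its floxed range took in all KO values, as in Cd300a, Cd300lb, Cd300lf and Cd300e. Syk, the kinase these adapters recruit, had a log2 fold change of −0.31 (SE 0.18, adjusted p = 0.352 by edgeR). Ptpn6, a phosphatase recruited by the inhibitory tails, had −0.37 (SE 0.21, adjusted p = 0.358 by edgeR). The kinases Lyn and Fgr had −0.52 and −0.39 and the lipid kinase Pik3cd −0.38, with adjusted p of 0.18, 0.327 and 0.43. The list summed to 3726, 2338, 3746 and 3815 CPM in floxed and 2761 to 2874 CPM in KO libraries, so floxed replicate 3 was lowest there too.

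Other paired receptors of myeloid cells were compared as a further list, with 35 of 36 genes tested. Of these, 1 was called by edgeR and by DESeq2, and it was higher in KO: Treml1, a receptor of platelets and megakaryocytes. It was at 0.844, 2.53, 0.553 and 0.92 CPM in floxed and 8.79, 5.67, 8.94 and 9.13 CPM in KO libraries, a log2 fold change of 2.71 (SE 0.45, adjusted p = 0.0239 by edgeR, 9.09e-08 to 0.122 over the alternatives). With the replicate block its adjusted p was 0.122, above the threshold, and it also missed the thresholds with any KO library, floxed replicate 1 or floxed replicate 5 left out. The platelet markers were also higher in every KO library, as given above, and their part in the value of Treml1 was not tested.

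The rest of that list leaned the other way without passing the test over all 8 libraries, with 31 of 35 fitted values below 0 and a median of −0.50. Cd33, an inhibitory sialic acid receptor, was at 629.1, 324.3, 451.4 and 439.0 CPM in floxed and 227.5, 279.5, 229.5 and 239.0 CPM in KO libraries (log2 fold change −0.92, SE 0.22, adjusted p = 0.0531 by edgeR, 0.00218 to 0.236 over the alternatives). Its groups did not overlap, floxed replicate 3 included. Lilrb4a had −0.55, Lilr4b −0.50, Clec12a −0.25, Pirb −0.39 and the IgG receptor Fcgr3 −0.61 on the log2 scale, and none of them passed the test over all 8 libraries. Without floxed replicate 3 their adjusted p by edgeR was 0.0124, 0.0206, 0.136, 0.00845 and 0.00517 in the same order. Their log2 fold changes in that fit ran from −0.82 to −0.41, short of the threshold of 1.5. Clec4e, a C-type lectin named after its value was seen, had −1.34 (SE 0.34, adjusted p = 0.0642 by edgeR) and −1.60 with an adjusted p of 0.000667 without floxed replicate 3.

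**Figure D4:**
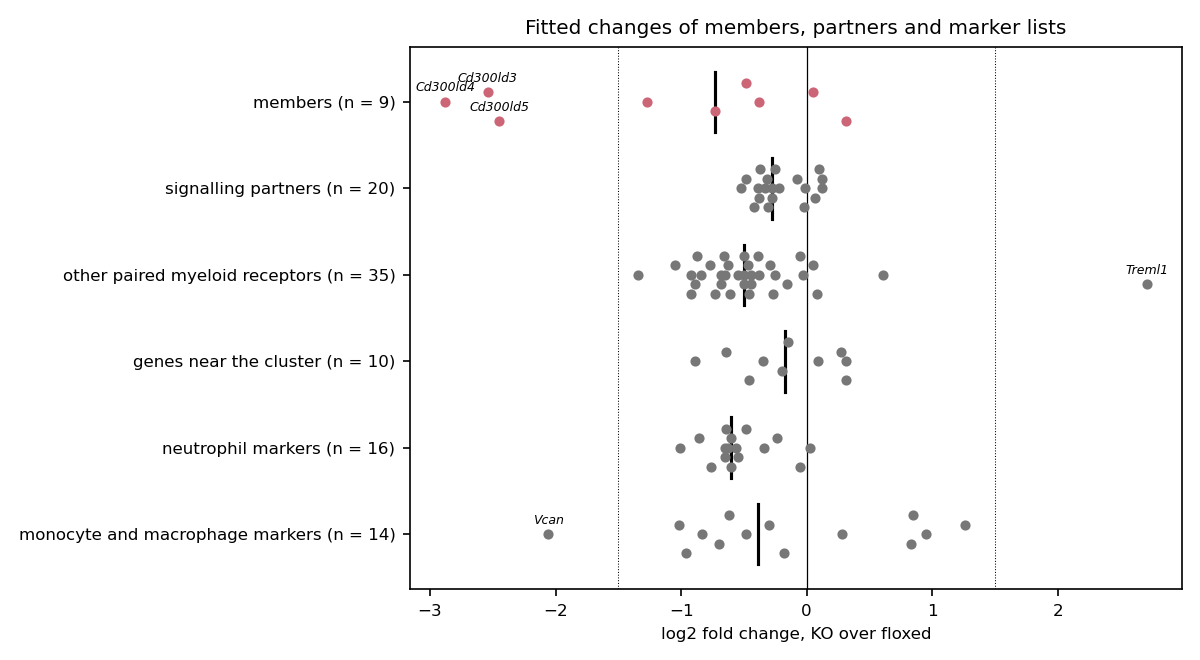
Log2 fold change of KO over floxed libraries for each tested gene of 6 lists (points; members red), with the median of each list as a black bar and dotted lines at an absolute value of 1.5. The members' median is −0.73, that of the other paired receptors −0.50, of the signalling partners −0.28 and of the neutrophil markers −0.60.

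The members varied together across the 8 libraries to different degrees. As a description over 8 libraries that share their 2 genotypes and the low values of floxed replicate 3, Pearson's r of log2(CPM + 1) with the mean of the other members was 0.995 for Cd300lb, 0.964 for Cd300e, 0.946 for Cd300lf and 0.923 for Cd300ld. It was 0.906, 0.869 and 0.833 for Cd300ld4, Cd300ld5 and Cd300ld3. Cd300a with 0.526 and Cd300c2 with 0.277 followed the others least.

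Outside the cluster, the 5 genes whose levels were most like the mean of the members were Rab32 (r = 0.995), Rab31 (r = 0.992), Ppp1r2 (r = 0.991), Degs1 (r = 0.991) and Ptpn6 (r = 0.990), over the same 8 libraries. Rab32, a small GTPase, was at 125.8, 57.4, 114.0 and 122.8 CPM in floxed and 72, 70.2, 66.8 and 70.5 CPM in KO libraries. As in Cd300lb, floxed replicate 3 was below every KO library and the other floxed libraries were above them.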

How the data were processed

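RNA-seq libraries of sorted LT-HSCs from 4 asrij floxed and 4 asrij KO mice were analysed. The submitters' processing notes and the study's methods name FastQC, Trim Galore and Bowtie 2 and the build GRCm38/mm10, and the authors deposited whole-number counts, not normalized, for each of 138930 Ensembl transcripts. The counting tool and its use of strand are not given in the sources used here. The study's methods describe alignment to reference transcripts, while the inclusion of introns and both strands is inferred from the counts themselves. The columns of 7 of the 8 files are divided by tabs although their names say commas, so their unit was recorded as another unit, and all values were checked to be whole.

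Genes were taken from GENCODE M21, which holds 138789 of these transcripts, and the other 141 took 0.0474% to 0.0584% of the counts. The count of a gene was that of its transcript with the highest total, because reads were counted on several transcripts. Counts were filtered with filterByExpr, scaled by TMM and compared over all 8 libraries with glmQLFit and glmQLFTest of edgeR 4.0.16 in R 4.3.3, with Benjamini-Hochberg adjustment over 21902 genes. SE is that of the log2 fold change. DESeq2 1.42.0 served as an alternative, and both were tested on simulated data. Other steps used Python 3.11.15 with pandas 2.3.3. The p-values measure the spread between mice of a genotype, 1 library each. Depth was 23412829 to 44874882 gene counts, and precision is limited for the Cd300ld copies, with 9 to 23 reads in each KO library.

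Members and lists were chosen with earlier results of these data known. The genes named were all members, other Cd300 symbols, the genes called in each list with up to 6 others of the highest mean level, genes overlapping a member, and the 5 genes most like the members. The remaining HSC markers were named after their values were seen. Replicate numbers 3, 4 and 5 come from the labels and stand for different mice. Same-numbered libraries deviated together (r of 0.427 to 0.707 over 3 pairs, against −0.726 to 0.711 over 13 other pairs), but so did libraries of different numbers within 1 to 3 and within 4 and 5 (0.359 to 0.711 over 5 pairs). Values with the number as a block are given where they change the call of a gene named. Alternatives were other scalings, filters and tests, sums over transcripts, leaving out overlapping genes, haemoglobin and immunoglobulin genes or each library, and blocks for replicate number. Adding the 3 Cd300ld copies into 1 gene was chosen after seeing the data.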

Additional observations from a re-analysis of the deposited data

Results flagged for a closer look

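A library was singled out where its gap to the nearest of the other 3 in its genotype exceeded Dixon's critical share of the whole range. Chance does this in about 1 of 20 groups, or 2.2 of 44 if these were independent. Of the 44 examined, 11 were found, 9 of them in floxed replicate 3. The groups share the same libraries, and the members vary together and enter a sum, so the 2 numbers cannot be compared directly. In floxed replicate 3, Cd300lb was at 93.3 CPM against 177.9 to 190.9 in the other floxed libraries, Cd300ld at 24.9 against 47.6 to 52.2, Cd300c2 at 12.4 against 23.2 to 23.4, Cd300e at 0.946 against 6.25 to 6.67 and Cd300lf at 135.0 against 243.0 to 251.9. The same library stood apart in the summed CPM of the members (320.7 against 575.8 to 601.4), the signalling partners (2338 against 3726 to 3815), the mast cell, basophil and eosinophil markers (739.4 against 1275 to 1341) and, as the highest, the megakaryocyte and platelet markers (65.7 against 30 to 32.9). In KO libraries, Cd300lb was at 117.6 CPM in replicate 4 against 124.5 to 125.7 in the others, and Cd300c2 at 22.3 CPM in replicate 3 against 26.3 to 26.8.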

How the results depend on the processing

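The number of genes called, 261, became 503 with DESeq2, 521 with a block for replicate numbers 4 and 5, 44 with the replicate block, 651 by adjusted p alone and 51 to 857 with each library left out, the highest without floxed replicate 3. The single call among the other paired receptors became 0 with the replicate block and ranged from 0 to 2 with each library left out. Signalling partners called stayed at 0 under every alternative. Among 151 fitted values of the 9 members under 17 alternatives, 148 differed from the value fitted over all 8 libraries by less than the SE of that value. The replicate block, fitted without floxed replicate 1 and KO replicate 2, moved Cd300ld4 to −2.30, Cd300ld5 to −1.91 and Cd300ld3 to −1.88. The sign changed once, for Cd300a without floxed replicate 3. Leaving out overlapping genes gave no value for Cd300lb and Cd300lf. The causes were not tested. The 9 to 23 reads of each Cd300ld copy in a KO library limit the precision of those levels.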

Other observations

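Of 6 related receptors with immunoglobulin domains, 4 were tested and 0 called by edgeR or DESeq2, with 2 at an unadjusted p under 0.05. Without floxed replicate 3, 1 gene of the list was called lower by edgeR, the rare transcript Cd300ld2. Fcmr, the receptor for IgM, was at 11.9, 13.3, 17.1 and 16.4 CPM in floxed and 20.2, 17.3, 28.2 and 28 CPM in KO libraries (log2 fold change 0.67, SE 0.21, adjusted p = 0.105 by edgeR). Fcamr, a receptor for IgA and IgM, was at 0.775 ± 0.316 CPM in floxed and 1.32 ± 0.124 CPM in KO libraries (SD, n = 4), with a log2 fold change of 0.76 (SE 0.35, adjusted p = 0.251 by edgeR). In both genes, and in Cd300c, every KO library was above every floxed one, as in 7.10% of all genes tested.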
